A study of Mus musculus with 6 samples.

Results

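4OHE1 (4-hydroxyestrone) is a catechol estrogen, and 1 of the 6 RNA sequencing libraries came from mouse macrophages that had received it. The library was set against the 3 control libraries and the 2 libraries of the other hydroxyestrogens. Bone marrow of 8-week-old female C57BL/6N mice was grown into macrophages with the growth factor M-CSF at 20 ng/mL and replated on day 7; the medium lacked phenol red and its serum was stripped with charcoal. The cells then received a compound for 1 h and 100 ng/mL lipopolysaccharide (LPS), a bacterial cell wall component, for 6 h. The hydroxyestrogens were 4OHE1, 2OHE2 (2-hydroxyestradiol) and 2OHE1 (2-hydroxyestrone), and the controls were 16Epi, an estrogen named in the labels by this code, E2 (estradiol) and EtOH, the ethanol vehicle. Each estrogen was used at 1 µM, from a 1 mM stock diluted 1:1000. All 6 cultures received LPS and none went without it, so a difference here is a difference within the LPS response. Each compound had 1 library, and separate animals or cultures are not stated for them, so that p-values measure only the spread between the 3 control libraries. That spread may be technical, and it also holds any difference between the vehicle, E2 and 16Epi.

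Catechol estrogens arise when cytochrome P450 enzymes add a hydroxyl to the A ring of estrone or estradiol. They can be oxidised to quinones, which react with thiols. KEAP1, a thiol-rich sensor of such electrophiles, marks the transcription factor NRF2 for degradation, and when KEAP1 is modified NRF2 accumulates and binds antioxidant response elements at genes for glutathione synthesis, quinone reduction and iron and heme handling. LPS acts through TLR4 and NF-κB to switch on cytokine and chemokine genes, which macrophages restrain with feedback inhibitors. 4OHE1 and 2OHE1 differ in the position of the A-ring hydroxyl, and 2OHE2 differs from 2OHE1 in having a D-ring hydroxyl in place of the ketone.

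The 4OHE1 library held 17326353 reads in genes, against 16808895 and 16424057 in the 2OHE2 and 2OHE1 libraries and 14734225 to 16059673 in the controls. Values are RPKM, reads scaled for transcript length and library total, and differences are on the scale of log2(RPKM + 0.1). Genes of at least 200 nt with a mean of at least 5 RPKM were tested, 7120 of 24016. limma's moderated test compared 4OHE1 with the mean of the 3 controls, on the assumption that a lone library varies like a control, and a gene was called at an adjusted p below 0.05. The summed level of macrophage markers was 10520 RPKM in the 4OHE1 library and 10210 to 10520 RPKM in the controls. Csf1r, the M-CSF receptor, had 459.7 RPKM with 4OHE1 and 433, 428 and 426 RPKM with E2, 16Epi and EtOH. Of the 18 macrophage markers tested, 8 were above the control mean, and 1 was called higher and 3 lower. Their median log2 difference was -0.15, against -0.04 over all genes tested. T cell, B cell and mast cell markers each summed to at most 1.58 RPKM in the 4OHE1 and control libraries, and the hemoglobin genes of red cells were at 0 in all 6. Fibroblast markers summed to 13.6 RPKM with 4OHE1 and 17.1 to 20.4 RPKM in the controls, and neutrophil markers to 39.7 RPKM and 37.4 to 51.5 RPKM in the same order. Dendritic cell markers summed to 3.69 RPKM with 4OHE1 and 2.75 to 3.49 RPKM in the controls, and 6 of their 8 genes were below 1 RPKM in all 6 libraries. Pf4, a platelet chemokine also made by macrophages, had 287 RPKM with 4OHE1 and 179 to 225 RPKM in the controls. What part such cells had in the results was not tested. In such bulk libraries, fewer cells of a type and less RNA per cell cannot be told apart.

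The 4OHE1 library had 726 genes that differed from the controls, 10.2% of those tested. Of these, 302 were higher (4.24%) and 424 lower (5.96%). Every one of them lay beyond all 3 control values, as did 5115 of all 7120 genes tested (71.8%). A control lay beyond the other 2 in 65.0% to 68.3% of genes. The test rests on the same control values, so this position is not separate evidence for the calls. The changes reached 2-fold in 37 higher and 48 lower genes. With the libraries rescaled to their median ratio, the split was 390 higher and 336 lower. The count depended on which controls were used: it was 260 without E2, 638 without 16Epi and 1212 without EtOH. The 249 genes called both with and without E2 changed in the same direction.

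NRF2 target genes rose in the 4OHE1 library. Of 30 tested targets on the list, 22 rose (73.3%, against 4.24% of all genes tested) and none fell. Their median log2 difference was 0.67, against -0.04 over all genes tested. The 4OHE1 value was the highest of all 6 libraries for 23 of the 30, and for 19.2% of all genes tested. Without the E2 control 18 of the 30 were called. The promoter windows of Prdx1, Gclm and Srxn1, 3 of the genes that rose, are shown because antioxidant response elements are the sites NRF2 binds. They are RefSeq sequences of build GRCm38.p6, from 250 bases before to 50 bases after the gene start on the plus strand, whereas coordinates of genes elsewhere are those of the deposited tables (mm9). Capitals mark matches to TGACNNNGC or TGAGNNNGC, forms of the element's core, on either strand.
Prdx1, chr4:116685349-116685648: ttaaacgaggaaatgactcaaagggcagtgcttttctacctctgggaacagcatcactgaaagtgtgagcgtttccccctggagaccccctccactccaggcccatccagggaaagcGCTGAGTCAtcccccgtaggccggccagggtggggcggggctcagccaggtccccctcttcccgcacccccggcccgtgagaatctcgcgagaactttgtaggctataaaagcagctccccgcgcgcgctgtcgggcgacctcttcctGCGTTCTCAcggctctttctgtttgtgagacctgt
Gclm, chr3:122245307-122245606: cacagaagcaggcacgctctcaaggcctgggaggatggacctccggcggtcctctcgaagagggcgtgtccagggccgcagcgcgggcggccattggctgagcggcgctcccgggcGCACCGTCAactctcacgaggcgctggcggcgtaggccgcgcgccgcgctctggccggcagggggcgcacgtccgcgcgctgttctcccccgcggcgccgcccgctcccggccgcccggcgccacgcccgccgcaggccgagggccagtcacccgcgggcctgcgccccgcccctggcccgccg
Srxn1, chr2:152105274-152105573: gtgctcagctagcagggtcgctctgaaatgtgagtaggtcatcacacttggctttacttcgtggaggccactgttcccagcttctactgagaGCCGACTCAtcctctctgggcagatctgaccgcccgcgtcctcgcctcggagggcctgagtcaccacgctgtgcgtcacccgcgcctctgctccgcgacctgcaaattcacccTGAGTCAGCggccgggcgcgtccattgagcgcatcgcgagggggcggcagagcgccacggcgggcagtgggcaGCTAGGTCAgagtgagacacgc
A match to either motif was present in 15 of 24 NRF2 targets with a window (62.5%), in 90 of 240 genes that rose (37.5%), in 102 of 313 that fell (32.6%), in 1976 of the 5497 genes tested that have a window (35.9%) and in 9128 of all 32851 windows (27.8%). The share among the genes that rose was thus near that of the genes tested. A match is a description of the letters and not a binding site.

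Gclc and Gss, 2 genes of glutathione synthesis, were among the 10 largest rises. Gclc, the catalytic subunit of the enzyme that sets the rate of glutathione synthesis (chromosome 9, 77602342 to 77642296, plus strand), had 71.4 RPKM with 4OHE1, 62.1 and 67.0 RPKM with 2OHE2 and 2OHE1, and 21.4, 21.4 and 20.6 RPKM with 16Epi, E2 and EtOH. The hydroxyestrogen values did not overlap those of the controls, and the 4OHE1 level was 3.37 times the control mean (log2 difference 1.75 ± 0.10 SE, limma adjusted p = 0.000352). Gclm, the modifier subunit of the same enzyme, had 417 RPKM with 4OHE1, 380.1 and 416 RPKM with 2OHE2 and 2OHE1, and 202, 205 and 227 RPKM with 16Epi, E2 and EtOH (log2 difference 0.98). Gss, which performs the second step of the pathway, had 46.5 RPKM with 4OHE1, 33.6 and 31.6 RPKM with 2OHE2 and 2OHE1, and 15.9, 17.5 and 14.5 RPKM with 16Epi, E2 and EtOH. It stood above both other hydroxyestrogens as well as the controls, with a log2 difference from controls of 1.54 ± 0.13 SE (limma adjusted p = 0.00128). Slc7a11, the cystine importer that feeds this pathway, did not pass the test, with 136 RPKM with 4OHE1 and 123 to 130.0 RPKM in the controls (log2 difference 0.10, limma adjusted p = 0.430). Its transcript is 9213 nt long, and after adjustment for the length trend described below its log2 difference was 0.44 (limma adjusted p = 0.0121).

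Heme and iron genes rose with them. Hmox1, the inducible heme oxygenase (chromosome 8, 77617517 to 77624492, plus strand), had 2462 RPKM with 4OHE1, 2024 and 2064 RPKM with 2OHE2 and 2OHE1, and 733, 841 and 906 RPKM with 16Epi, E2 and EtOH. The 4OHE1 value was the highest of the 6 and 2.99 times the control mean (log2 difference 1.58 ± 0.11 SE, limma adjusted p = 0.000583). Slc40a1, ferroportin, which exports iron, had 27.8 RPKM with 4OHE1, 18.6 and 26.1 RPKM with 2OHE2 and 2OHE1, and 7.39 to 10.0 RPKM in the controls (log2 difference 1.72). Ftl1, the ferritin light chain, had 8333 RPKM with 4OHE1, 6608 and 6950 RPKM with 2OHE2 and 2OHE1, and 4048, 4805 and 4810 RPKM with 16Epi, E2 and EtOH (log2 difference 0.88), while Fth1, the heavy chain, did not pass the test (0.26, limma adjusted p = 0.0641). Both ferritin genes have near-identical pseudogenes in the genome, which can split or attract reads. Blvrb, a biliverdin reductase, and Slc48a1, a heme transporter, rose by log2 differences of 0.68 and 0.66.

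Other targets on the list act on thiols and quinones. Srxn1, which repairs oxidised peroxiredoxins, had 483 RPKM with 4OHE1, 396 and 420.0 RPKM with 2OHE2 and 2OHE1, and 184, 194 and 206 RPKM with 16Epi, E2 and EtOH (log2 difference 1.31 ± 0.08 SE, limma adjusted p = 0.000527). Sqstm1, the autophagy receptor p62 that also binds KEAP1, had 2481 RPKM with 4OHE1, 1725 and 1995 RPKM with 2OHE2 and 2OHE1, and 1119, 1162 and 1204 RPKM with 16Epi, E2 and EtOH (log2 difference 1.10). For both genes each hydroxyestrogen stood above all controls and 4OHE1 was the highest library. Prdx1, a peroxiredoxin, had 4698 RPKM with 4OHE1 and 2401 to 2619 RPKM in the controls (log2 difference 0.90). Nqo1, the quinone reductase, and Txnrd1, a thioredoxin reductase, rose by log2 differences of 0.89 and 0.63. The 8 targets that did not pass the test were Slc7a11, Fth1, Txn1, Ephx1, Ugdh and the NADPH-related enzyme genes G6pdx, Tkt and Idh1. Of the same kind of enzyme gene on the list, Pgd, Taldo1 and Me1 were called higher. Ephx1, an epoxide hydrolase, had a log2 difference of 0.89 (limma adjusted p = 0.0831), and Txn1, thioredoxin, had a log2 difference of 0.30 (limma adjusted p = 0.0510).

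Of 8 tested regulators of NRF2, 1 rose and 1 fell, 25% against 10.2% of all genes tested. Nfe2l2, which encodes NRF2, had 115 RPKM with 4OHE1 and 101 to 114 RPKM in the controls, just above their range, and did not pass the test (log2 difference 0.11, limma adjusted p = 0.469). Keap1 had a log2 difference of 0.18 and Bach1, a repressor at the same elements, of -0.33, and neither passed the test. Mafg, a small MAF partner of NRF2, rose (0.55) and Cul3, the ubiquitin ligase scaffold that works with KEAP1, fell (-0.40). The call for Cul3 was lost without the E2 control (limma adjusted p = 0.0968), without 16Epi (0.0831) and after the length adjustment (0.0834).

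**Figure D1:**
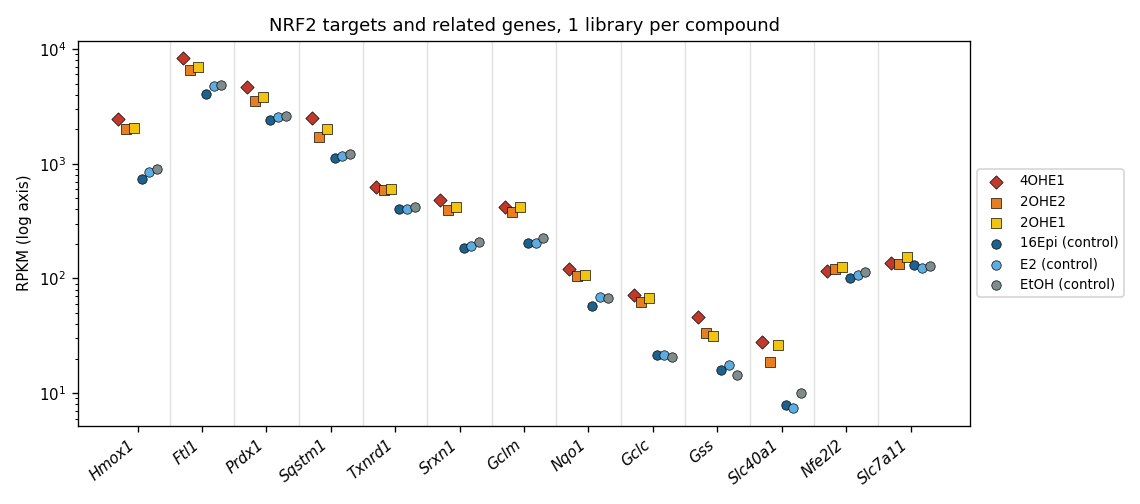
RPKM on a log axis for 11 genes that rose with 4OHE1, then Nfe2l2 and Slc7a11, which did not pass the test. Each point is 1 library, from 4OHE1 at the left of each column to the 3 controls at the right, so there are no error bars; Hmox1 stands at 2462 RPKM with 4OHE1 against 733 to 906 RPKM in the controls.

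Inflammatory genes fell in part. Of 25 tested cytokines and mediators, 12 fell (48%, against 5.96% of all genes tested) and none rose (median log2 difference -0.45). Without the E2 control 9 fell. Il1a, an alarm cytokine of the interleukin-1 family (chromosome 2, 129125346 to 129135708, minus strand), had 261 RPKM with 4OHE1, 232 and 313 RPKM with 2OHE2 and 2OHE1, and 775, 687 and 742 RPKM with 16Epi, E2 and EtOH. All 3 hydroxyestrogens were below all controls, and 4OHE1 stood at 0.356 of the control mean (log2 difference -1.49 ± 0.08 SE, limma adjusted p = 0.000352). Gm14023, which lies on the other strand over Il1a, fell too (-1.47), but no strand setting is stated for the counting, and reads of the pair cannot be told apart. Il1b had 1808 RPKM with 4OHE1, 1176 and 1752 RPKM with 2OHE2 and 2OHE1, and 3236, 3042 and 3166 RPKM with 16Epi, E2 and EtOH (log2 difference -0.80 ± 0.07 SE, limma adjusted p = 0.00128). It was likewise below every control with each hydroxyestrogen, and lowest with 2OHE2.

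Other members of the group fell by different amounts. Il12b, the shared subunit of interleukins that drive T cell responses, had 98.3 RPKM with 4OHE1 and 152 to 186 RPKM in the controls (log2 difference -0.77). Nos2, the inducible nitric oxide synthase, had 94.4 RPKM with 4OHE1 and 134 to 143 RPKM in the controls (-0.57). Edn1, the peptide endothelin, had 8.19 RPKM with 4OHE1, 18.1 and 12.4 RPKM with 2OHE2 and 2OHE1, and 20.2, 20.2 and 23.2 RPKM with 16Epi, E2 and EtOH (-1.36). Il18, Csf1, Tnfsf9, Tnfsf15, Saa3 and Serpinb2 also fell, with log2 differences between -0.48 and -1.24.

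Tnf and Irg1, both abundant in all 6 libraries, did not pass the test. Tnf had 1933 RPKM with 4OHE1, 1824 and 2076 RPKM with 2OHE2 and 2OHE1, and 1977, 1941 and 1850 RPKM with 16Epi, E2 and EtOH, so the 4OHE1 value lay inside the control range (log2 difference 0.01, 95% interval -0.15 to 0.17). Irg1, the itaconate-producing enzyme, had 2519 RPKM with 4OHE1 and 2464 to 2499 RPKM in the controls (0.03, 95% interval -0.12 to 0.17). Il6 had 356 RPKM with 4OHE1 and 387 to 456 RPKM in the controls, below all of them but not past the test (-0.27, limma adjusted p = 0.118). Il10, an anti-inflammatory cytokine, was in the same position (-0.34, limma adjusted p = 0.0685). Ifnb1, interferon beta, had 9.57 RPKM with 4OHE1, 1.59 and 7.41 RPKM with 2OHE2 and 2OHE1, and 15.8 to 20.9 RPKM in the controls. It passed the test in 4OHE1 (-0.86, limma adjusted p = 0.0379) but not without the E2 control (0.0762).

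Chemokines moved in both directions. Of 18 tested, 9 fell (50%, against 5.96% of all genes tested) and 3 rose (16.7%, against 4.24%). Without the E2 control 6 fell and 1 rose. Ccl2, a monocyte attractant, had 221 RPKM with 4OHE1, 268 and 280.2 RPKM with 2OHE2 and 2OHE1, and 444, 448 and 515 RPKM with 16Epi, E2 and EtOH (log2 difference -1.08 ± 0.10 SE, limma adjusted p = 0.00134). Cxcl10 and Cxcl11, interferon-induced attractants of T cells, fell by 0.55 and 0.95 on the log2 scale, and Cxcl10 missed the threshold without the E2 control (limma adjusted p = 0.0512). Ccl4, Ccl7, Ccl9, Ccl12, Ccl17 and Ccl22 were the other 6 that fell. The 3 that rose were the neutrophil attractants Cxcl1, Cxcl2 and Cxcl3. Cxcl3 had 1329 RPKM with 4OHE1, 976 and 1237 RPKM with 2OHE2 and 2OHE1, and 672, 654 and 784 RPKM with 16Epi, E2 and EtOH, all 3 hydroxyestrogens above all controls (0.92). Cxcl1 and Cxcl2 rose less, by 0.49 and 0.30.

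Feedback inhibitors of LPS signalling also fell in part. Of 24 tested, 11 fell (45.8%, against 5.96% of all genes tested) and none rose, with 3 falling without the E2 control and 6 after the length adjustment. Il1rn, the interleukin-1 receptor antagonist, had 186 RPKM with 4OHE1, 149 and 183 RPKM with 2OHE2 and 2OHE1, and 335, 322 and 336 RPKM with 16Epi, E2 and EtOH (-0.83 ± 0.07 SE, limma adjusted p = 0.00128). Socs1, which restrains cytokine receptor signalling, had 90.7 RPKM with 4OHE1 and 142 to 146 RPKM in the controls (-0.67). Nfkbia, the NF-κB inhibitor, did not pass the test (-0.10). Among 41 interferon-stimulated genes, Gbp5, Ddx58, Slfn5 and Cxcl10 fell and Oasl1 rose, 12.2% of the list and close to the 10.2% of all genes tested. Without the E2 control 1 fell and none rose, after the length adjustment 2 fell and 1 rose, and with limma-voom 14 fell and 1 rose. Ch25h, which makes 25-hydroxycholesterol, and Abca1, a cholesterol exporter, fell, with log2 differences of -1.28 and -1.17. They were the 2 that fell of 10 tested genes on a list of LXR receptors, their targets and other sterol genes. The list's median was -0.01, 30% of it was called, against 10.2% of all genes tested, and 1 gene rose. That was Apoe, a lipid carrier (0.29, limma adjusted p = 0.0368), which missed the threshold without the E2 control (0.0892) and after the length adjustment (0.0898).

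**Figure D2:**
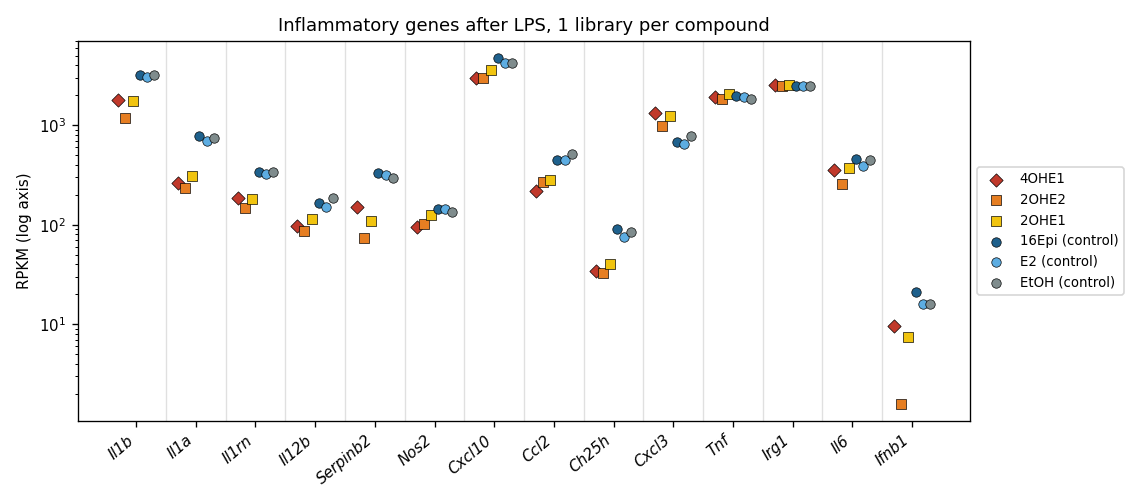
RPKM on a log axis for 14 inflammatory genes, 1 point per library, with 4OHE1 at the left of each column and the controls at the right. Il1a stands at 261 RPKM with 4OHE1 against 687 to 775 RPKM in the controls, Cxcl3 above all controls, and Tnf and Irg1 between 1824 and 2076 RPKM and between 2464 and 2531 RPKM over the 6 libraries.

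The largest single rise was not on any list. Ednrb, the endothelin B receptor (chromosome 14, 104213832 to 104242918, minus strand), had 54.0 RPKM with 4OHE1, 34.0 and 44.9 RPKM with 2OHE2 and 2OHE1, and 12.5, 10.5 and 13.1 RPKM with 16Epi, E2 and EtOH. The hydroxyestrogens stood clear of the controls, and 4OHE1 was 4.47 times their mean (log2 difference 2.16 ± 0.15 SE, limma adjusted p = 0.000562). Layn, which encodes a hyaluronan receptor, had 26.5 RPKM with 4OHE1 and 5.81 to 8.18 RPKM in the controls (1.98), and Acss2, which makes acetyl-CoA from acetate, had 9.66 RPKM with 4OHE1 and 2.65 to 3.16 RPKM in the controls (1.69). Treml4 and Rabgap1l completed the 10 largest rises with 1.55 and 1.51. Cdkn2b, a CDK inhibitor, rose by 1.46, and Cebpa, a myeloid transcription factor, by 1.07.

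Of 18 tested ATF4 targets, genes of the response to amino acid shortage, 4 rose (22.2%, against 4.24% of all genes tested), namely Atf4 itself, Mthfd2, Slc3a2 and Gdf15, and 3 rose without the E2 control, which took Mthfd2 out, as did leaving out 16Epi. Gdf15, a stress-induced cytokine, had 51.0 RPKM with 4OHE1, 32.2 and 43.6 RPKM with 2OHE2 and 2OHE1, and 19.4, 18.4 and 14.9 RPKM with 16Epi, E2 and EtOH (1.54 ± 0.16 SE, limma adjusted p = 0.00226). Of 16 heat shock genes only Ubb was called, and none was without the E2 control; Hspa1a was at 2.43 RPKM with 4OHE1 and 1.45 to 2.57 RPKM in the controls, too low to be tested. None of 15 endoplasmic reticulum stress genes, 19 cholesterol synthesis genes or 15 immediate early factors passed limma's test. Its unadjusted p was below 0.05 for 3, 5 and 8 of them in turn, and for 2107 of all 7120 genes tested. With limma-voom, 1 endoplasmic reticulum stress gene was higher and 2 lower, 1 cholesterol synthesis gene was lower, and 2 immediate early factors were higher and 3 lower. Without the EtOH control, 2 endoplasmic reticulum stress genes were lower, 2 cholesterol synthesis genes were higher, and 1 immediate early factor was higher and 1 lower. Of 18 macrophage identity genes, 1 rose, the transcription factor Cebpa (1.07), and 3 fell. These were 5.56% and 16.7% of the list, against 4.24% and 5.96% of all genes tested. Maf, Msr1 and Itgam fell by 0.73, 0.65 and 0.40 on the log2 scale, and Itgam lost its call without the E2 control (limma adjusted p = 0.0670).

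Of 7 tested genes of estrogen and steroid handling, 1 rose and 2 fell, 42.9% against 10.2% of all genes tested, and none was called without the E2 control or after the length adjustment. Esr1, the estrogen receptor alpha gene, was at 0.129 RPKM with 4OHE1 and 0.0420 to 0.395 RPKM in the controls, below the level tested. Cyp1b1, a catechol-forming enzyme, was the 1 call among 6 tested genes of a separate aryl hydrocarbon receptor list (16.7%, against 10.2% of all genes tested). It had 3.29 RPKM with 4OHE1, 4.97 and 5.54 RPKM with 2OHE2 and 2OHE1, and 6.60, 6.12 and 7.36 RPKM with 16Epi, E2 and EtOH. It fell to 0.501 of the control mean in 4OHE1 (limma adjusted p = 0.0235) but missed the threshold without the E2 control (0.0575) and after the length adjustment (0.0631). On the estrogen and steroid list, Hsd17b10 rose (0.54), and the nuclear receptor gene Nr3c1 and the coactivator gene Ncoa3 fell (-0.53 and -0.61). All 3 of these were lost without the E2 control, with limma adjusted p of 0.0576, 0.0536 and 0.0696, and after the length adjustment.

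Cytosolic ribosomal protein genes were the list with the most higher calls. Of 78, 33 were called higher (42.3%, against 4.24% of all genes tested) and none lower, with a median log2 difference of 0.41. All 78 were above the control mean, as were 3203 of the 7120 genes tested. The 4OHE1 value was the highest of the 6 libraries for 64 of the 78, and for 19.2% of all genes tested. Fau, which encodes a ubiquitin-like protein fused to a ribosomal protein, had 505 RPKM with 4OHE1, 371 and 408 RPKM with 2OHE2 and 2OHE1, and 272, 309 and 325 RPKM with 16Epi, E2 and EtOH (0.74). Rpl13 and Rpl37a, proteins of the large subunit, rose by 0.68 and 0.61. Glycolysis and HIF1 target genes had 5 higher calls of 24 (20.8%), Slc2a1, Gapdh, Pgk1, Eno1 and Pkm, and 1 lower (4.17%), Pfkfb3. The proteasome had 6 higher calls of 36 (16.7%) and the respiratory chain 5 of 55 (9.09%), against 4.24% of all genes tested. The cell cycle list had 4 lower calls of 24 (16.7%, against 5.96% of all genes tested), Mki67, Top2a, Ccna2 and Rrm1. Without the E2 control these lists had 6, 1, 1 and 0 higher calls, from ribosomal proteins, glycolysis, the proteasome and the respiratory chain in turn, and the cell cycle list had 0 lower calls. Without the EtOH control the same lists had 67, 7, 11 and 12 higher calls, and with limma-voom 62, 9, 10 and 7. Leaving out 16Epi gave the cell cycle list 1 lower call. Ribosomal protein and respiratory chain genes have many processed pseudogenes with near-identical sequence, so reads may be split between copies. Ccna2 overlaps Exosc9 on the other strand, with mean levels of 23.99 and 26.4 RPKM. As no strand setting is stated, reads from their overlap cannot be told apart.

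**Figure D3:**
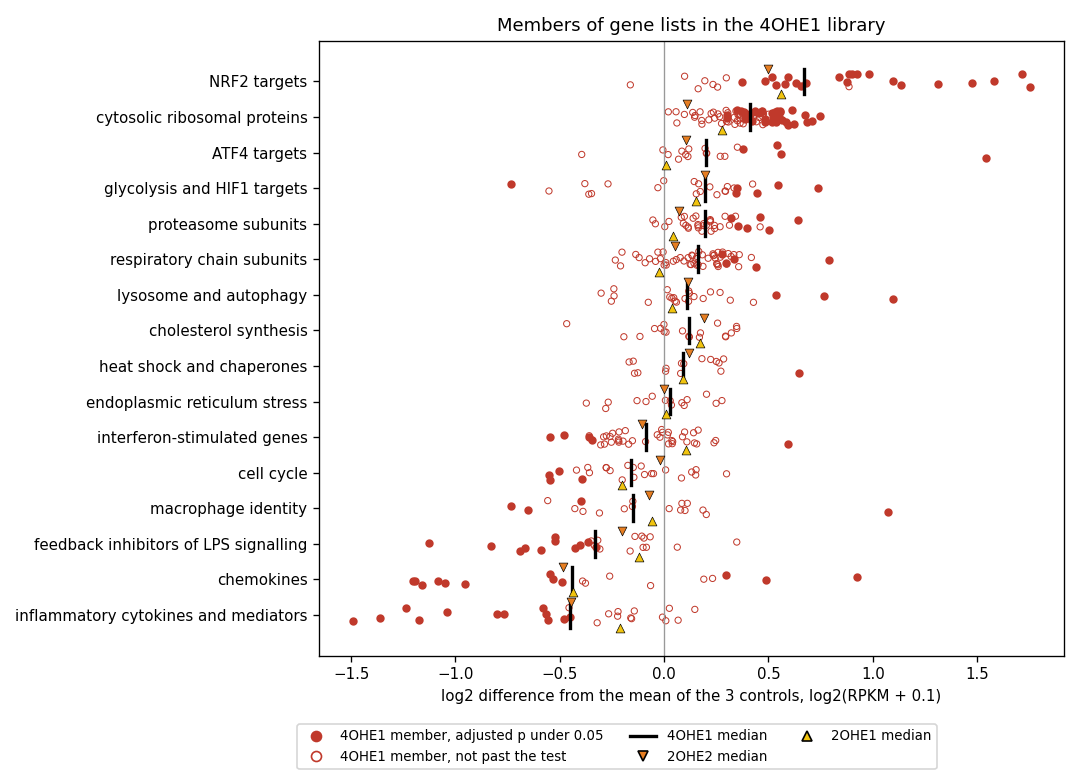
Log2 difference between 4OHE1 and the mean of the 3 controls for each tested member of 16 gene lists. Filled points passed the test and open ones did not, black bars are 4OHE1 medians and triangles are the medians of 2OHE2 and 2OHE1; the NRF2 targets stand furthest right, at a median of 0.67, and inflammatory mediators furthest left, at -0.45.

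The 4OHE1 library differed from all 5 others in how its values followed transcript length. Its median log2 difference from the controls was 0.24 for transcripts of 200 to 500 nt, 0.06 for 1000 to 2000 nt and -0.30 for 6000 nt and over. The medians of the other 5 libraries stayed between -0.08 and 0.06 in every length bin. The genes that rose had a median length of 1443 nt and those that fell 3624 nt, against 2475 nt for all genes tested. When a smooth length trend was removed from each library, an adjustment chosen after seeing the data, 434 genes were called, 216 higher and 218 lower, and 383 of the 726 kept their call. After it, 23 NRF2 targets rose and 12 inflammatory genes fell, while ribosomal proteins had 8 higher calls in place of 33, the respiratory chain 1 in place of 5 and the cell cycle list none in place of 4 lower. The ribosomal protein genes have a median length of 674 nt and the respiratory chain genes 733 nt. The library also held the largest share of Rn45s, the ribosomal RNA precursor, 1.44% of its reads, against 0.62% and 0.54% with 2OHE2 and 2OHE1 and 0.57% to 0.80% in the controls. What part either property had in the calls was not tested beyond the adjustment.

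**Figure D4:**
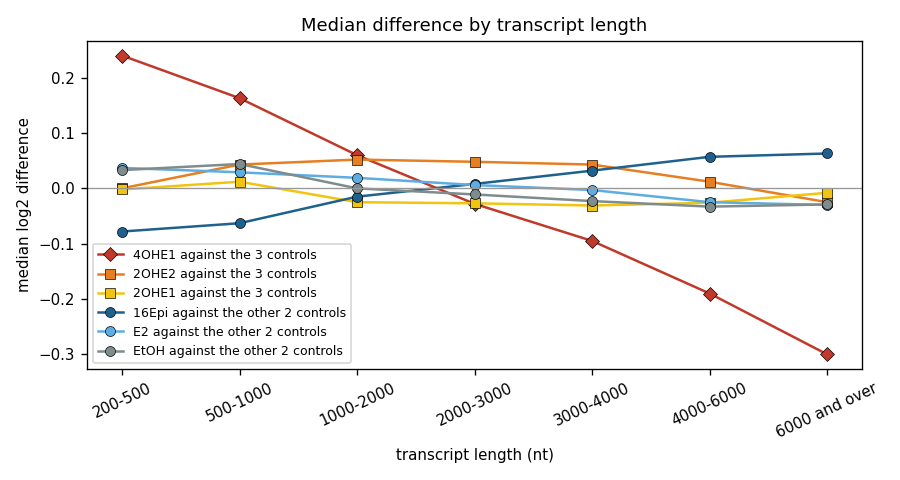
Median log2 difference of each library by bin of transcript length in nt; hydroxyestrogens are set against the 3 controls, and each control against the other 2. The 4OHE1 line falls from 0.24 at 200 to 500 nt to -0.30 at 6000 nt and over, while the other 5 lines stay between -0.08 and 0.06.

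The 4OHE1 value was the highest or lowest of all 6 libraries in 3554 of 7120 genes, 1370 highest (19.2%) and 2184 lowest (30.7%), more than the 1679 to 2518 of any other library. At a gap of at least 1.5-fold to the nearest other library there were 76 such genes, 14 higher (0.197%) and 62 lower (0.871%), against 19 for 2OHE2, 16 for 2OHE1 and 6 or 7 for each control. At 2-fold there were 8, 2 higher (0.0281%) and 6 lower (0.0843%), against 4, 3 and at most 1. Genes at least 2-fold beyond all 3 controls numbered 51 with 4OHE1, of which 24 were higher (0.337%) and 27 lower (0.379%), 31 with 2OHE2 and 25 with 2OHE1; a control against the other 2 gave 0 to 4. These counts are descriptions with no test.

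The genes lowest in 4OHE1 came from several functions. Ctgf, a matricellular growth factor (chromosome 10, 24315248 to 24318488, plus strand), had 5.09 RPKM with 4OHE1, 13.5 and 15.2 RPKM with 2OHE2 and 2OHE1, and 14.7, 14.9 and 16.1 RPKM with 16Epi, E2 and EtOH. The other 5 libraries lay close together and 4OHE1 was at 0.339 of the control mean. Cp, ceruloplasmin, a copper ferroxidase, had 1.69 RPKM with 4OHE1, 4.30 and 4.35 RPKM with 2OHE2 and 2OHE1, and 6.40, 6.41 and 7.09 RPKM with E2, 16Epi and EtOH, a gradient in which the other hydroxyestrogens were also below the controls. Rel, the NF-κB subunit c-Rel, had 9.88 RPKM with 4OHE1, 20.9 and 22.3 RPKM with 2OHE2 and 2OHE1, and 21.5, 21.9 and 25.5 RPKM with E2, EtOH and 16Epi, with 2OHE1 inside and 2OHE2 just below the control range. St8sia4, a polysialyltransferase, Lrmp and Cd300e, a myeloid receptor, had 2.37, 4.11 and 3.10 RPKM with 4OHE1, against 6.80 to 9.33, 8.97 to 10.2 and 7.94 to 10.3 RPKM in the controls. Cox20, an assembly factor of cytochrome oxidase, had 13.1 RPKM with 4OHE1, 26.2 and 24.7 RPKM with 2OHE2 and 2OHE1, and 29.1 to 35.8 RPKM in the controls. Rgs16, a regulator of G protein signalling, had 7.50 RPKM with 4OHE1, 18.2 and 14.4 RPKM with 2OHE2 and 2OHE1, and 18.8 to 19.6 RPKM in the controls. Bbc3, the p53 target PUMA, was 2.85 RPKM with 4OHE1 and 5.39 to 5.96 RPKM in the controls.

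Of the genes highest in 4OHE1, 2 were RNAs of the ribosome or its processing. Rn45s had 2163 RPKM with 4OHE1, 948 and 827 RPKM with 2OHE2 and 2OHE1, and 858, 1201 and 1005 RPKM with 16Epi, E2 and EtOH. Rmrp, the RNA of the RNase MRP complex that processes ribosomal RNA, had 43.6 RPKM with 4OHE1 and 16.9 to 20.9 RPKM in the other 5 libraries. Lars2, annotated as the mitochondrial leucyl-tRNA synthetase, had 552 RPKM with 4OHE1 and 215 and 196 RPKM with 2OHE2 and 2OHE1. It had 146, 282 and 216 RPKM with 16Epi, E2 and EtOH. The highest libraries for Lars2 were 4OHE1, E2 and EtOH in turn, as they were for Rn45s. Whether ribosomal RNA reads entered the Lars2 count was not tested. Uxt, a prefoldin-like protein, had 17.1 RPKM with 4OHE1 and 5.83 to 8.16 RPKM in the others. Slpi, the secretory leukocyte protease inhibitor, had 144 RPKM with 4OHE1, 86.2 and 85.9 RPKM with 2OHE2 and 2OHE1, and 46.4 to 60.4 RPKM in the controls, so that all 3 hydroxyestrogens stood above the controls.

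**Figure D5:**
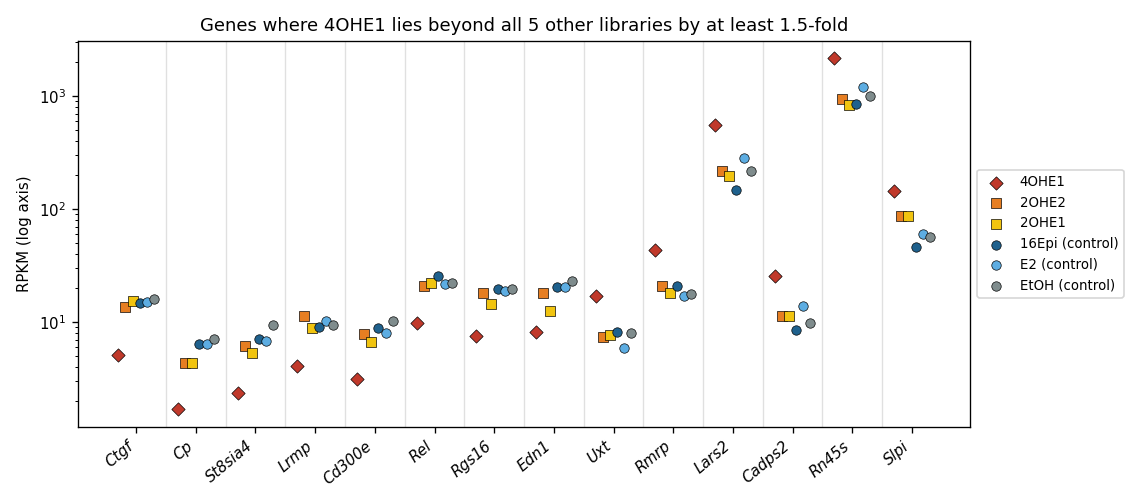
RPKM on a log axis for 14 genes in which 4OHE1 lies beyond all 5 other libraries by at least 1.5-fold, 1 point per library. The first 8 are lower and the last 6 higher with 4OHE1; Ctgf stands at 5.09 RPKM with 4OHE1 against 13.5 to 16.1 RPKM in the other 5.

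4OHE1 was compared with each other hydroxyestrogen at the same dose and times, in 2 pairs of 1 library each, with the spread of the controls assumed for both. No gene (0% in each) passed limma's test in either pair after adjustment over both pairs, nor against the mean of the 2. At an unadjusted p below 0.05 there were 1272 genes against 2OHE2, 1189 against 2OHE1 and 1392 against their mean, and limma-voom on recovered reads called 49 higher and 177 lower against 2OHE2, 37 higher and 189 lower against 2OHE1, and 84 higher and 258 lower against their mean. The median 95% interval of a difference reached 0.40 to either side on the log2 scale, and it lay within 2-fold for 6255 of the 7120 genes against 2OHE2 and 6360 against 2OHE1, so differences of that size were bounded for most genes but smaller ones were not. A missed threshold does not show that the compounds act alike.

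Intervals for single genes varied in width. Serpinb2 and Ctgf were among the genes with the smallest p in these pairs, and the others were named for their place in the comparison with controls. Hmox1 differed by 0.28 from 2OHE2 (95% interval -0.03 to 0.59) and by 0.25 from 2OHE1 (-0.06 to 0.56) on the log2 scale, intervals that include 0. Sqstm1 was higher with 4OHE1, by 0.53 (0.33 to 0.72) over 2OHE2 and 0.32 (0.12 to 0.51) over 2OHE1, but with adjusted p of 0.130 and 0.167 by limma. Il1b was higher with 4OHE1 than with 2OHE2 by 0.62 (0.43 to 0.81, limma adjusted p = 0.113) and differed from 2OHE1 by 0.05 (-0.15 to 0.24). Serpinb2, a serpin of activated macrophages, had 152 RPKM with 4OHE1, 73.8 and 109 RPKM with 2OHE2 and 2OHE1, and 294 to 331 RPKM in the controls, so that 4OHE1 had the smallest fall of the 3, by 1.04 over 2OHE2 (0.80 to 1.28, limma adjusted p = 0.0677). Ctgf was lower with 4OHE1 than with 2OHE1 by a log2 difference of -1.56 (-1.97 to -1.16, limma adjusted p = 0.0998).

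The other hydroxyestrogens were set against the same 3 controls, so the 3 comparisons are not independent. 4OHE1 had 726 calls, 2OHE2 had 228 (3.2%), 129 higher (1.81%) and 99 lower (1.39%), and 2OHE1 had 140 (1.97%), 95 higher (1.33%) and 45 lower (0.632%). The 302 genes higher with 4OHE1, chosen in that library, had a median log2 difference of 0.59 with 4OHE1, 0.33 with 2OHE2 and 0.39 with 2OHE1. The 424 lower genes had medians of -0.61, -0.22 and -0.20 in the same order of compounds. The NRF2 targets had a median log2 difference of 0.67 with 4OHE1, 0.50 with 2OHE2 and 0.56 with 2OHE1, and the ribosomal proteins one of 0.41, 0.11 and 0.28 in the same order of compounds. The inflammatory genes had medians of -0.45, -0.45 and -0.21.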

How the data were processed

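Per the labels' protocols, mRNA libraries were sequenced on a HiSeq 2500. The submitters' processing notes name STAR, HOMER, DESeq2 and edgeR and the build mm9, with no versions. RPKM values were deposited by the authors, made with HOMER over exons with 1 entry kept for each gene, as the file headers record. A second deposited table holds the authors' log2 expression values, used as an alternative. Groups follow the titles and column headers; the labels' treatment field contradicts them. The dose unit is garbled in the labels, and the stock and dilution give 1 µM.

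limma 3.58.1 in R 4.3.3 fitted log2(RPKM + 0.1) with a variance trend, a coefficient for each hydroxyestrogen and another shared by the controls (2 residual degrees of freedom, 7.92 in all at the median), with two-sided tests and Benjamini-Hochberg adjustment over 7120 genes, or over both pairs. Differences are 4OHE1 minus the other group, with limma's standard errors and 95% intervals. RPKM times length and library total gave whole reads within 0.1 for 100% of low values, and limma-voom on these reads called 1401 genes. The fits were checked on simulated data in which every library had the same noise and no length trend. That check cannot show how the test behaves if the 4OHE1 library varies more than a control. The members, the 34 gene lists and the rule for named genes (the 10 largest rises and falls, 6 each way farthest from all 5 others, the smallest p in pairs and lists, and a set chosen by name) were chosen with earlier results of these data known. Genes in the plots of lists or of gaps outside that rule, such as Slpi, were chosen after their values were seen.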

Additional observations from a re-analysis of the deposited data

How the results depend on the processing

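None of the 726 genes was called in the opposite direction in any setting run. Genes that lost their call do not enter that count. The 726 calls against the controls became 266 with no filter on low values, 224 without a variance trend, 1401 with limma-voom, 1323 on the authors' deposited log2 values, 434 after the length adjustment (chosen after seeing the data) and 85 with a 2-fold minimum; without 1 control they ranged from 260 (E2) to 1212 (EtOH). The 0 calls in the pairs became 855 with no filter, 19 at a length of 1000 nt or more, 452 with limma-voom, 2 under median-ratio scaling and 460 on the authors' values, and 0 to 416 without 1 control. The 0 calls against the mean of the 2 became 603, 34, 342, 6 and 347 under those settings in turn, 5 with 2OHE2 and 2OHE1 as 1 group, 4 after the length adjustment and 0 to 323 without 1 control. The 76 genes beyond all 5 libraries became 45 with log2(RPKM + 1), 292 at a mean RPKM of 1, 9 at 20 and 50 after the length adjustment, and 83 to 96 without 1 control. The 51 beyond the controls became 188 and 20 at those means, and 66 to 67 without 1 control. The causes were not tested. With the other settings each count stayed within 1.5 times its reported value. Of the 726 genes, 47 were among the calls with no filter and 213 among those without a variance trend. Of 100 named genes called, 62 kept the call without any 1 control, 15 with no filter, 45 without a variance trend and 44 with the replicate block, and 38 changed at least 2-fold. The titles number the libraries, and with 2OHE2 and 2OHE1 as 1 group and the numbers as a replicate block (chosen after seeing the data, 1 residual degree of freedom), 123 genes were called against the controls, 117 of them among the 726, and 1 against the mean of the 2. Across genes, deviations from the group means correlated at 0.08 for 4OHE1 and E2, -0.12 for 2OHE2 and EtOH and 0.07 for 2OHE1 and 16Epi. Libraries with unlike numbers gave correlations from -0.13 to 0.07. Each library of a group had its own treatment, so these values cannot tell whether the numbers pair the libraries. The pair by pair tests have no blocked form, with 1 library a side. Genes under a mean of 5 RPKM, where few reads limit precision, were left out of the counts reported above.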

Other observations

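Other lists held a few further calls with 4OHE1, to be read beside the 10.2% of all genes tested. Pcx, pyruvate carboxylase, had 8.38 RPKM with 4OHE1, 8.78 and 9.52 RPKM with 2OHE2 and 2OHE1, and 3.00, 3.46 and 4.90 RPKM with 16Epi, E2 and EtOH (log2 difference 1.16, limma adjusted p = 0.0395, 0.0971 without the E2 control). Of 24 tricarboxylic acid cycle genes, Pcx rose and Idh3a fell, 8.33% of the list and no more than over all genes (-0.43, limma adjusted p = 0.102 without the E2 control and 0.0541 without the 16Epi control). Afg3l2, a mitochondrial inner membrane protease, had 34.4 RPKM with 4OHE1 and 20.3 to 21.9 RPKM in the controls, and was the 1 call among 18 mitochondrial chaperones and proteases, 5.56% of them (0.70). Of 24 lysosome and autophagy genes, 3 rose (12.5%), namely Sqstm1, Gabarapl1 (0.76) and Map1lc3b (0.54), the last of which missed the threshold without the E2 control (limma adjusted p = 0.0776). Of 11 p53 targets, Plk2, a stress-induced kinase, rose (0.58) and Bbc3 fell (-0.99), and Bbc3 missed the threshold without the E2 control (limma adjusted p = 0.0670). Of 6 genes of metal handling, Mt1, a metallothionein, rose (0.46) and the zinc transporter Slc30a4 fell (-0.77), and both missed it without the E2 control (0.0510 and 0.102, limma adjusted p). Slc30a4 missed it without the 16Epi control as well (limma adjusted p = 0.0836).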
